A study of Mus musculus with 10 samples.

Results

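The genes of the vascular endothelial growth factor (VEGF) family, 10 in all, were followed in calf muscle of mice with and without desmin. They are the ligand genes Vegfa, Vegfb, Vegfc, Vegfd and Pgf, the receptor genes Flt1, Kdr and Flt4, and the neuropilin genes Nrp1 and Nrp2, and they were looked up by symbol among the 54232 genes of the deposited table. All 10 were found, and all 10 lay above the expression limit that 14289 genes passed. RNA was sequenced from the gastrocnemius muscle, which one legend of the study gives together with plantaris, of 5 homozygous desmin knock-out mice (Des -/-) and 5 wild-type littermates (Des wt/wt) at 3 months of age. The line carries the allele Destm1Cba, of 129Sv origin, on the B6J background (laboratory code Cscl). The targeted allele is carried by the whole animal, so its loss is not restricted to muscle fibers. The methods mention pooling of the RNA of 5 muscles per genotype, but each mouse has its own column in the table and was used here as 1 replicate. The sex of the mice was not given in the sources used here. Values are regularized log (rlog) values, which stand on a log2 scale and are drawn towards the mean of each gene, so that differences come out smaller than those of read counts. Depth is unknown from such values. Transcripts of the Y chromosome were present in all 10 mice, so each library held RNA of male tissue. The mean rlog value of 4 Y-linked genes was 10.25 to 10.57 in desmin knock-out and 9.52 to 10.62 in wild-type mice.

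VEGF ligands are secreted proteins that act on receptor tyrosine kinases of endothelial cells, the cells that line blood and lymph vessels. Kdr encodes VEGFR2, the main signalling receptor for VEGF-A, whereas Flt1 encodes VEGFR1, which binds VEGF-A more tightly but signals weakly and can act as a trap, and Flt4 encodes VEGFR3, the receptor for VEGF-C and VEGF-D in lymphatic vessels. Neuropilins are co-receptors that also bind class 3 semaphorins. In muscle, fibers themselves produce much of the VEGF-A that maintains their capillaries, and VEGF-B is abundant in oxidative tissues.

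Des identified each library. Its rlog value lay between 11.76 and 11.89 in desmin knock-out and between 16.10 and 17.74 in wild-type mice. Wild-type mouse 3 stood apart from its group, with a mean correlation of 0.982 with the other wild-type mice, compared with 0.989 to 0.991 for the rest of that group and 0.996 to 0.997 among desmin knock-out mice. The sum of its values, taken back from the log2 scale, was 1.48 times the median of the mice, compared with 0.949 to 1.06 in all others. The cause was not tested. Values of the VEGF family that rest on this mouse are given with and without it. Genes of fast muscle fibers, which make up most of this muscle, had a mean rlog value between 18.45 and 19.69 in the 10 mice.

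In desmin knock-out muscle, 2 of the 10 genes were lower and none was higher at an adjusted p under 0.05 (limma, adjusted over all tested genes). These were Flt1 and Nrp1, with 0.665 and 0.652 times the wild-type level when the difference of rlog values is taken back from the log2 scale. No ligand gene passed the test. The share of 20% compares with 13.7% of all tested genes that passed in either direction, 5.99% as lower and 7.7% as higher. At an unadjusted p under 0.05 there were 4 genes, the others being Flt4 and Vegfb. Of the 10 genes, 7 had a lower and 3 a higher mean without desmin. Their median log2 difference was -0.28, while the median of all tested genes was -0.0029.

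**Figure D1:**
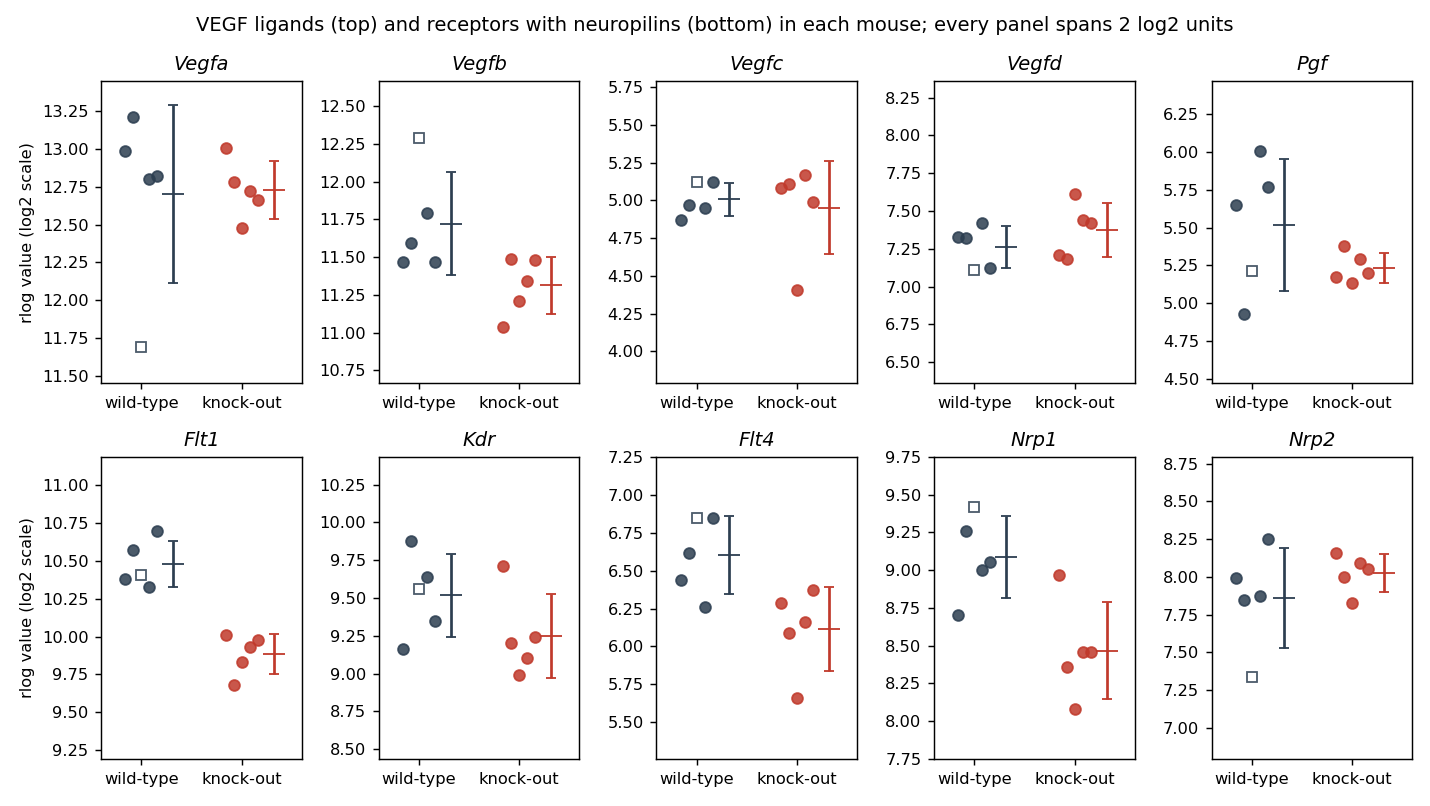
Each panel plots the rlog values (log2 scale) of 1 gene in 5 wild-type (dark) and 5 desmin knock-out mice (red), with the mean and SD of each genotype beside the points. The open square is wild-type mouse 3. The groups separate completely for Flt1 alone, and wild-type mouse 3 is the lowest for Vegfa (11.69) and the highest for Vegfb (12.29).

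Flt1 (ENSMUSG00000029648) lies on the reverse strand of chromosome 5 of GRCm38 from 147561604 to 147726011. In desmin knock-out mice 1 to 5 its rlog values were 10.01, 9.68, 9.83, 9.93 and 9.98. In wild-type mice 1 to 5 they were 10.38, 10.57, 10.41, 10.33 and 10.70. Every knock-out value was below every wild-type value, a separation that 14.4% of tested genes showed in either direction, 6.97% as lower and 7.45% as higher. The mean was 9.89 ± 0.13 (SD, n = 5) without desmin, against 10.47 ± 0.15 (SD, n = 5) with desmin. The log2 difference was thus -0.59, with a standard error (SE) of 0.10 and a 95% confidence interval from -0.80 to -0.37 (adjusted p = 0.00133 from limma). When single mice were left out, the difference stayed between -0.63 and -0.53 and the adjusted p between 6.49e-04 and 0.00543.

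Nrp1 (ENSMUSG00000025810), whose product binds VEGF-A and strengthens signalling through VEGFR2, lies on the forward strand of chromosome 8 from 128358604 to 128503363. Desmin knock-out mice 1 to 5 had rlog values of 8.97, 8.36, 8.08, 8.46 and 8.46. Wild-type mice 1 to 5 had 8.70, 9.26, 9.42, 9.0 and 9.05. Of the knock-out mice, 4 lay below all wild-type mice, and knock-out mouse 1 was within the wild-type range. The log2 difference was -0.62 (SE 0.16, 95% confidence interval -0.97 to -0.26, adjusted p = 0.0236 from limma). This call was less firm than that of Flt1. The adjusted p of Nrp1 was 0.063 without knock-out mouse 2, 0.0633 without knock-out mouse 3, 0.0538 without knock-out mouse 4, 0.0547 without knock-out mouse 5 and 0.0568 without wild-type mouse 2, with differences from -0.74 to -0.52 over all mice left out.

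The RefSeq sequence of GRCm38.p6 before the transcription start is shown for Flt1 and Nrp1, which passed the test, and for Kdr, the other VEGF-A receptor gene, which did not. Each run holds 250 bases, 5′ to 3′ on the strand of the gene, and ends at the base before the start. These are chr5:147726012-147726261 (reverse strand) for Flt1, chr8:128358823-128359072 (forward strand) for Nrp1 and chr5:75978456-75978705 (reverse strand) for Kdr. Capitals mark matches, on either strand, to the hypoxia response core letters ACGTG or GCGTG, to the ETS letters CCGGAA and to the cAMP response element TGACGTCA.
Flt1: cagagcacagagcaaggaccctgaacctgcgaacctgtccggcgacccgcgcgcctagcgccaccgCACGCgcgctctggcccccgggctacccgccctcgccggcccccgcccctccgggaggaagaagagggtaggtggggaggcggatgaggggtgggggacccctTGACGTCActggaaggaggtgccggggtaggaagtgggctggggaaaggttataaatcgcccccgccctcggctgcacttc
Nrp1: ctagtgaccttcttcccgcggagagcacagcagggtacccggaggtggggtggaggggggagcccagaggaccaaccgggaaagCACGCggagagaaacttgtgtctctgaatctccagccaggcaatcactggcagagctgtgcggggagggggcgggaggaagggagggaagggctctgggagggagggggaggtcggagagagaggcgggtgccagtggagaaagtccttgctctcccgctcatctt
Kdr: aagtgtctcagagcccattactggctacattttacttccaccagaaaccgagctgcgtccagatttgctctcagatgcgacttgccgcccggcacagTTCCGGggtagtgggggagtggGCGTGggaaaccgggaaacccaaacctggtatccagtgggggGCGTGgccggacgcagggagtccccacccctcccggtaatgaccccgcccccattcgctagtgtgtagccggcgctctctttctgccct

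All 3 runs hold GCGTG, once in Flt1 and Nrp1 and at 2 places in Kdr. These letters were in 28.2% of the 32851 windows of the same length before annotated starts. Windows of Nrp2, Vegfb, Pgf and Vegfa, none of which passed the test, hold them as well. The match in Flt1 begins 184 bases and that in Nrp1 begins 166 bases upstream of the start. TGACGTCA, which 1.55% of windows hold, was found in Flt1 alone among the windows of the 10 genes, 81 bases upstream of its start. CCGGAA, in 12.0% of windows, was found in Kdr alone, and ACGTG, in 16.6%, in none of the 3 runs. A match is a description of letters and not of a bound site. The Nrp1 window lies within the gene as GENCODE M21 draws it, because that annotation has an earlier start.

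Kdr (ENSMUSG00000062960), which encodes the main signalling receptor, lies on the reverse strand of chromosome 5 from 75932827 to 75978458. Its rlog values in desmin knock-out mice 1 to 5 were 9.71, 9.20, 8.99, 9.10 and 9.24. In wild-type mice 1 to 5 they were 9.16, 9.88, 9.56, 9.64 and 9.35. The genotypes overlapped, with knock-out mouse 1 above 4 of the wild-type mice. The Kdr difference of -0.27 on the log2 scale (SE 0.15, limma adjusted p = 0.273) had a 95% confidence interval from -0.60 to 0.06, which includes differences close to that of Flt1. The within-mouse difference Flt1 minus Kdr was 0.64 ± 0.24 (SD, n = 5) without desmin, against 0.95 ± 0.31 (SD, n = 5) with desmin. An exact two-sided permutation test gave p = 0.135 for this balance (adjusted p = 0.202 over 3 such balances), so a larger fall of Flt1 than of Kdr was not shown.

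Flt4 (ENSMUSG00000020357), which encodes VEGFR3, is found on chromosome 11 (forward strand, 49609263 to 49652739). Desmin knock-out mice 1 to 5 had 6.29, 6.09, 5.66, 6.16 and 6.37, and wild-type mice 1 to 5 had 6.44, 6.62, 6.85, 6.26 and 6.85. Of the knock-out mice, 3 were below all wild-type mice. The Flt4 log2 difference of -0.49 (SE 0.16, 95% confidence interval -0.83 to -0.15) missed the threshold with an adjusted p of 0.0575 (limma). It passed without wild-type mouse 4 (adjusted p = 0.0313), after median centring of the samples (adjusted p = 0.0426) and after quantile normalization (adjusted p = 0.0279). With any other single mouse left out it did not pass (adjusted p up to 0.128 from limma). The difference ranged from -0.57 to -0.37 over all mice left out.

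Nrp2 (ENSMUSG00000025969), the neuropilin that partners VEGFR3 in lymphatic vessels, did not share the lower values of Nrp1. Desmin knock-out mice 1 to 5 had 8.16, 8.0, 7.83, 8.09 and 8.05, and wild-type mice 1 to 5 had 7.99, 7.85, 7.34, 7.87 and 8.25. The knock-out values fell inside the wild-type range, and the log2 difference was 0.17 (SE 0.15, limma adjusted p = 0.494). Without wild-type mouse 3, which was the lowest, it was 0.04. Nrp2 lies on chromosome 1 from 62703285 to 62818695, 12.54 Mb from Des, and 2 annotated genes overlap it, Gm29083 on the opposite strand and Gm37121 on the same strand, with which reads can be shared. The within-mouse difference Nrp1 minus Nrp2 was 0.44 ± 0.21 (SD, n = 5) without desmin, against 1.23 ± 0.55 (SD, n = 5) with desmin. It ranged from 0.26 to 0.81 and from 0.71 to 2.08, so that only knock-out mouse 1 reached into the wild-type range. The exact permutation test gave p = 0.0238, which did not hold after adjustment over the 3 balances (adjusted p = 0.0714). With single mice left out, the adjusted p of the same exact test ranged from 0.0476 to 0.143. The lowest was without knock-out mouse 1, the only mouse that overlapped. Its removal separates the genotypes completely and so gives the smallest p the test allows, which adds no support.

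The family included abundant and scarce transcripts. Per kilobase of annotated exons, mean wild-type levels (log2 of the level per kilobase) decreased from Vegfb (11.04) and Vegfa (10.60) over Flt1 (6.72), Kdr (6.35), Vegfd (5.99), Nrp1 (5.79), Nrp2 (4.29), Pgf (3.98) and Vegfc (3.71) to Flt4 (3.56). In wild-type mice only the steps from Vegfa to Flt1 and from Nrp1 to Nrp2 were larger than the spread, and all other neighbours in this order overlapped. In desmin knock-out mice Vegfa and Vegfb had the same mean (10.63), and Vegfd (6.10) came before Kdr (6.07), with overlapping ranges in both cases. Vegfa lay above 95.1% of tested genes in wild-type and above 95.3% in desmin knock-out muscle, whereas Vegfc lay above 15.0% and 13.9%. These shares compare rlog values without regard to length.

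Vegfa (ENSMUSG00000023951, chromosome 17, reverse strand, 46016993 to 46032369) encodes the ligand of VEGFR1 and VEGFR2 and is induced by low oxygen. Desmin knock-out mice 1 to 5 had rlog values of 13.01, 12.78, 12.48, 12.72 and 12.66. Wild-type mice 1 to 5 had 12.99, 13.21, 11.69, 12.80 and 12.82. All knock-out values lay within the wild-type range, whose lower end was set by wild-type mouse 3. The log2 difference was 0.03 (SE 0.23, limma adjusted p = 0.948), with a 95% confidence interval from -0.46 to 0.52. It changed sign without wild-type mouse 3 (log2 difference -0.22, adjusted p = 0.197 from limma) and without knock-out mouse 1 (log2 difference -0.04). When limma weighted the samples, the log2 difference was -0.31 with an adjusted p of 0.0364.

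Vegfb (ENSMUSG00000024962, chromosome 19, reverse strand, 6982473 to 6987651) encodes a ligand of VEGFR1 but not of VEGFR2. Its values were 11.04, 11.49, 11.21, 11.34 and 11.48 in desmin knock-out mice 1 to 5. In wild-type mice 1 to 5 they were 11.47, 11.59, 12.29, 11.79 and 11.47. Of the knock-out mice, 3 were below all wild-type mice, but the log2 difference of -0.41 (SE 0.15, 95% confidence interval -0.74 to -0.08) did not pass (adjusted p = 0.0962 from limma). Without wild-type mouse 3, the highest of all, it was -0.27 (adjusted p = 0.0951 from limma). Vegfa minus Vegfb was 1.42 ± 0.32 (SD, n = 5) without desmin, against 0.98 ± 0.91 (SD, n = 5) with desmin (exact permutation test, p = 0.429, adjusted p = 0.429). In wild-type mouse 3 alone Vegfb exceeded Vegfa, with a balance of -0.60, and without this mouse the genotypes differed by 0.05.

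For the remaining ligand genes no difference beyond the spread between mice was shown. Pgf, which encodes placental growth factor, another ligand of VEGFR1 (ENSMUSG00000004791, chromosome 12, reverse strand, 85166635 to 85177790), had 5.23 ± 0.10 (SD, n = 5) without desmin, against 5.51 ± 0.44 (SD, n = 5) with desmin (adjusted p = 0.334 from limma). Its knock-out values, from 5.13 to 5.38, lay within the wild-type range from 4.93 to 6.01. The lymphatic ligand genes Vegfc (ENSMUSG00000031520, chromosome 8, forward strand, 54077606 to 54187096) and Vegfd (ENSMUSG00000031380, chromosome X, forward strand, 164373378 to 164402650) had log2 differences of -0.06 (95% confidence interval -0.37 to 0.26) and 0.11 (95% confidence interval -0.13 to 0.36). Vegfc values ranged from 4.41 to 5.17 in desmin knock-out and from 4.87 to 5.12 in wild-type mice. Vegfd values ranged from 7.18 to 7.61 and from 7.11 to 7.42. The genotypes overlapped for both.

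Markers of endothelial cells were lower in the same mice as Flt1. A list of 20 such markers, which holds none of the VEGF family, had a mean rlog value between 8.11 and 8.44 in desmin knock-out and between 8.52 and 8.78 in wild-type mice, without overlap (8.30 ± 0.13 against 8.66 ± 0.09, SD, n = 5 each, exact permutation test, p = 0.00794, the smallest that 5 mice against 5 allow). This list was chosen with earlier results of these data known, so the p-value is not that of an independent test. The log2 of the summed level of the list ranged from 12.87 to 13.27 and from 13.34 to 13.63. All 20 markers were tested and all 20 had a lower mean without desmin, with a median log2 difference of -0.37. Of them, 7 were lower at an adjusted p under 0.05 (limma), as were 5.99% of all tested genes. With single mice left out, 5 to 7 were lower. The 7 include Tie1 and Tek, whose calls were lost when any of 7 and any of 9 mice was left out. None of the markers was listed at 0. The strongest were Eng, the endoglin co-receptor (log2 difference -0.80, SE 0.13, adjusted p = 0.0011 from limma), the matrix protein gene Mmrn2 (log2 difference -0.71, adjusted p = 0.0029 from limma), the transcription factor gene Sox18 (log2 difference -0.59, adjusted p = 0.00736 from limma) and the junction gene Cdh5 (log2 difference -0.52, adjusted p = 0.00797 from limma). In whole muscle, fewer endothelial cells and less RNA of these genes per cell cannot be told apart.

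**Figure D2:**
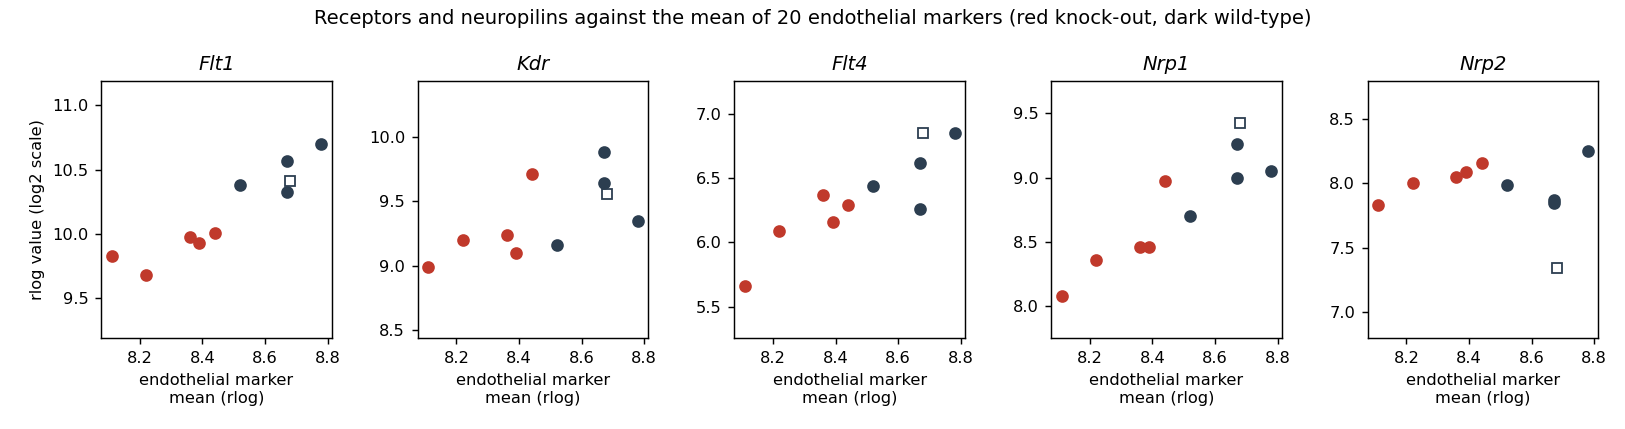
The rlog values of the 3 receptor and 2 neuropilin genes (vertical axes, log2 scale) are plotted against the mean of 20 endothelial markers in the same mouse (horizontal axes), with desmin knock-out mice in red, wild-type mice in dark and wild-type mouse 3 as an open square. Knock-out mice lie to the left of all wild-type mice (8.11 to 8.44 against 8.52 to 8.78), and Flt1 is low in the same mice.

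To set each gene beside these markers, the endothelial mean of each mouse was subtracted from all its values and all genes were fitted again. On this scale the median of all tested genes rose to 0.36, and 48.7% of genes passed, 47.6% as higher and 1.17% as lower. Flt1 then had a log2 difference of -0.23 (95% confidence interval -0.47 to 0.02, adjusted p = 0.114 from limma). Nrp1 had -0.25 (95% confidence interval -0.56 to 0.05, adjusted p = 0.145 from limma), Flt4 had -0.13 and Kdr had 0.09. None of these 4 genes passed in this fit. With sample weights, Flt1 (log2 difference -0.30, adjusted p = 9.59e-04 from limma) and Nrp1 (log2 difference -0.38, adjusted p = 9.92e-04 from limma) passed as lower without desmin on this scale. Whether their decrease was larger than that of the marker mean thus depended on the weighting of the mice. With the marker mean as a covariate in place of the subtraction, 1.39% of genes passed in either direction and none of the family. Nrp2 (0.53, adjusted p = 0.0103 from limma) and Vegfd (0.47, adjusted p = 0.0186 from limma) passed as higher, in a fit in which 47.6% of all genes did so. The call of Vegfd was lost without knock-out mouse 3 (adjusted p = 0.057), and Vegfc, with 0.31, passed without that mouse (adjusted p = 0.0309).

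**Figure D3:**
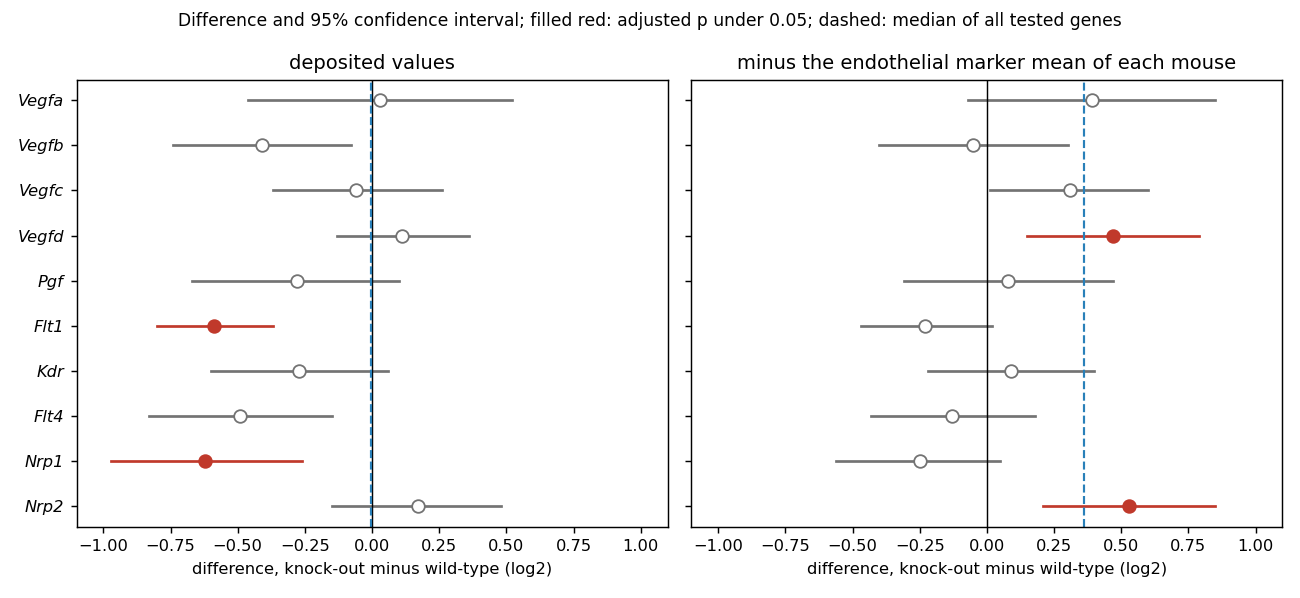
The differences between genotypes (log2, knock-out minus wild-type) are plotted with their 95% confidence intervals for the 10 genes, from the deposited values (left) and after subtraction of the endothelial marker mean (right). Filled red points passed an adjusted p under 0.05, and the dashed line is the median of all tested genes, which lies at -0.0029 on the left and at 0.36 on the right. Flt1 and Nrp1 pass on the left, Vegfd and Nrp2 on the right.

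The genes most similar to Flt1 and Nrp1 over the 10 mice were found by the root mean square difference of values centred on the mean of each gene. For Flt1 these were Ephb4 (0.0804 log2 units), the receptor of venous endothelium, She (0.081) and Sipa1l1 (0.0871), which were lower by 0.57, 0.54 and 0.58 on the log2 scale. For Nrp1 they were Best3 (0.072), Cd300lg (0.112), which encodes a capillary endothelial surface protein, and Tmem255b (0.129). Best3 and Cd300lg passed the test, with adjusted p values of 0.00989 and 0.0141 (limma), whereas Tmem255b did not (adjusted p = 0.107 from limma). Since genotype separates the mice, genes with a difference of the same size come first in such a ranking.

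Other genes of the pathway were followed by list. Of 13 genes for class 3 semaphorins, plexins and an adaptor of neuropilins, all tested, 1 was lower and none higher, with a median log2 difference of 0.05. It was Sema3g, a semaphorin of arterial endothelium, which was 7.85 ± 0.20 (SD, n = 5) without desmin, against 8.35 ± 0.19 (SD, n = 5) with desmin and lower in every knock-out mouse (adjusted p = 0.0164 from limma). Of 9 genes that process VEGF-C and VEGF-D, 8 were tested. The convertase gene Furin was lower (log2 difference -0.37, adjusted p = 0.0184 from limma), a call lost without knock-out mouse 1 or knock-out mouse 5 (adjusted p up to 0.0553), and the convertase gene Pcsk5 was higher (log2 difference 0.73, adjusted p = 0.00177 from limma), with a median of 0.02 for the list.

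Of 14 regulators of Vegfa in the response to oxygen and in oxidative metabolism, all tested, 1 was higher and 1 lower, with a median log2 difference of -0.11. The nuclear receptor gene Esrrg was higher in every desmin knock-out mouse (log2 difference 1.09, SE 0.20, adjusted p = 0.00239 from limma). Hif3a was lower (log2 difference -0.67, adjusted p = 0.0401 from limma), but this call was lost when any of 7 of the 10 mice was left out (adjusted p up to 0.106). The main oxygen-responsive factor genes, named here after their values were seen, had log2 differences of 0.26 (Hif1a, SE 0.17) and -0.12 (Epas1, SE 0.10), neither of which passed.

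Of 28 genes of signalling downstream of VEGFR2, 27 were tested, of which 1 was higher and 2 were lower, with a median of -0.01. Nos3, the endothelial nitric oxide synthase, was lower (log2 difference -0.49, adjusted p = 0.00873 from limma), as was the kinase gene Akt1 (log2 difference -0.61, adjusted p = 0.0151 from limma), each in all 5 knock-out mice. Pik3ca, which encodes a catalytic subunit of the PI3 kinase, was higher (log2 difference 0.48, adjusted p = 0.0266 from limma), a call lost when any of 6 mice was left out (adjusted p up to 0.0645). Akt1 and Pik3ca are used by muscle fibers as well as by endothelium. Of 11 genes for receptor trafficking and phosphatases, 2 were lower and none higher, with a median of -0.14. They were Ephb4 (log2 difference -0.57, adjusted p = 0.00114 from limma) and Cdh5.

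Of 14 genes that VEGF induces in endothelial cells, 13 were tested, 3 were higher and none lower, with a median log2 difference of 0.08 (0.01 without wild-type mouse 3). When single mice were left out, 2 to 4 were higher, and 2 were lower without wild-type mouse 1. The higher genes were the immediate-early factor gene Egr3 (4.18 ± 0.21 against 3.3 ± 0.12, SD, n = 5 each, adjusted p = 3.3e-04 from limma), the phosphatase gene Dusp5 (log2 difference 0.91, adjusted p = 0.00133 from limma) and the growth factor gene Pdgfb (log2 difference 0.50, adjusted p = 0.0196 from limma). The call of Pdgfb was lost without knock-out mouse 2 or knock-out mouse 4 (adjusted p up to 0.0601). The wild-type mean of Egr3 lies just under the expression limit of 3.32, which the gene passed through its knock-out values. The gene of the list that was not tested is Esm1, named here after its value was seen. Its means of 3.15 without and 2.70 with desmin lie under the limit. In the fit with no expression limit it was higher (log2 difference 0.45, adjusted p = 0.0368 from limma), and every knock-out value was above every wild-type value. Egr3 and Dusp5 are also induced in other cells by many stimuli.

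A list of 8 genes held the angiopoietin and Tie system, which stabilizes vessels, and angiopoietin-like genes. Of these, 2 were higher and 2 lower, with a median of 0.17, and both higher genes were angiopoietin-like. The receptor genes Tie1 (log2 difference -0.48, adjusted p = 0.0385 from limma) and Tek (log2 difference -0.41, adjusted p = 0.0474 from limma) were lower. Neither call was firm, since 7 of the 10 mice for Tie1 and 9 for Tek ended it when left out (adjusted p up to 0.0974 and 0.117). Angptl2 (log2 difference 0.79, adjusted p = 0.00203 from limma) and Angptl4, an inhibitor of lipoprotein lipase (log2 difference 1.0, adjusted p = 0.00695 from limma), were higher in all knock-out mice, and their products do not bind these receptors. Of 10 genes for secreted proteins listed as inhibitors of angiogenesis, 2 were higher and none lower, with a median of 0.21. Of these, Vash2, is a vasohibin described as promoting vessel growth and so does not do what the list's name says. It was higher (log2 difference 0.96, SE 0.12, adjusted p = 1.49e-04 from limma). The other was Thbs2, a thrombospondin that inhibits vessel growth (log2 difference 0.58, adjusted p = 0.0342 from limma), a call lost when any of 7 mice was left out (adjusted p up to 0.0889).

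**Figure D4:**
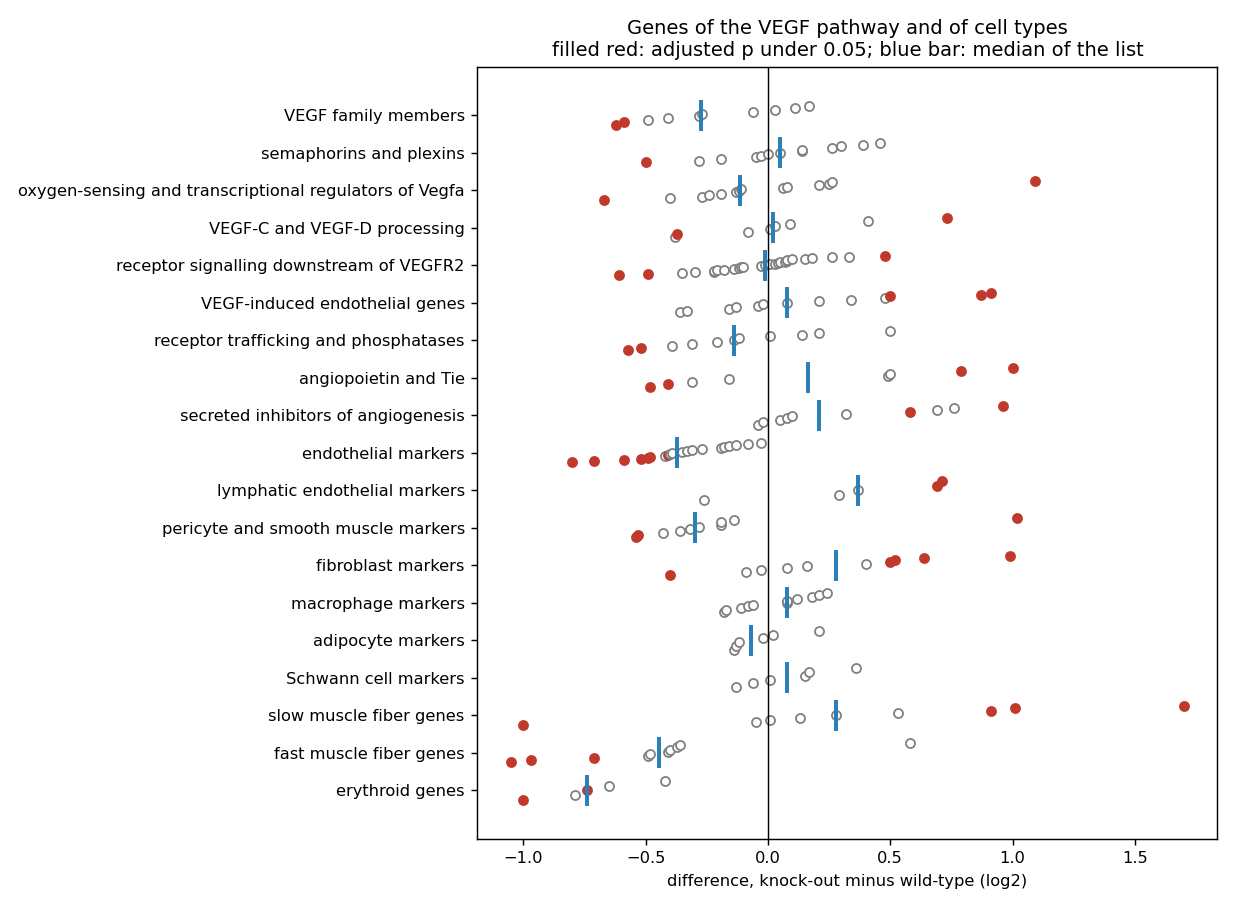
Each point is the difference of 1 tested gene (log2, knock-out minus wild-type), with the genes sorted into lists on the vertical axis, filled red where the adjusted p was under 0.05. Blue bars are list medians, which lie at -0.28 for the VEGF family and at -0.37 for endothelial markers.

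Lymphatic vessels are a site of VEGFR3. Of 6 of their markers 5 were tested, 2 were higher and none lower, with a median of 0.37, and Ccl21a was listed at 0 in all mice. These 2 genes were Prox1 (6.18 ± 0.10 against 5.50 ± 0.12, SD, n = 5 each, adjusted p = 5.94e-04 from limma), which slow muscle fibers also express, and Reln (log2 difference 0.71, adjusted p = 0.00696 from limma). Of 10 pericyte and smooth muscle markers 9 had a lower mean, 2 were lower and 1 higher, with a median of -0.30. The pericyte genes Kcnj8 (log2 difference -0.53, adjusted p = 0.0144 from limma) and Higd1b (log2 difference -0.54, adjusted p = 0.0196 from limma) were lower, whereas Cspg4, the NG2 proteoglycan, was higher (log2 difference 1.02, adjusted p = 9.66e-05 from limma). The mean rlog value of this list was 9.16 to 9.47 in desmin knock-out and 9.40 to 9.73 in wild-type mice. The part of pericytes, smooth muscle and lymphatic vessels in the values of the VEGF family was not tested.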

How the data were processed

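RNA of gastrocnemius muscle was converted with a stranded mRNA kit and sequenced for 5 desmin knock-out and 5 wild-type mice. According to the submitters' processing notes, cutadapt 2.5, STAR 2.5.4a, featureCounts of Subread 1.6.1 and DESeq2 were used on GRCm38, and the strand setting of the counting was not given in the sources used here. The values deposited by the authors are DESeq2 rlog values, log2 values that account for library size. No counts were used, so counting error and depth are unknown, and values near the lower end are the most shrunken. GENCODE M21 gave a symbol and a position for 54079 of 54232 genes, and 26079 genes had the value 0 in all mice.

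The 14289 genes whose mean reached log2(10) were fitted with limma 3.58.1 in R 4.3.3 (genotype term, prior variance following the mean, two-sided, Benjamini-Hochberg over all tested genes, call at an adjusted p under 0.05). The design was chosen after the study's genotype comparison, and a count test could not be used on rlog values. The fit was also run on simulated data. These were independent normal values with the same SD in both genotypes and no deviating mouse. They cannot show how the calls respond to a mouse such as wild-type mouse 3. Balances of gene pairs were tested with exact permutation tests. Levels per kilobase are rlog values minus log2 of the union of annotated exons. All 10 sample columns were used. The limma p-values set a difference against the variation between these mice, moderated by the prior variance. The permutation p-values come from reassigning these mice to the genotypes.

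The members and 19 gene lists were chosen with earlier results of these data known. Genes named were the VEGF family, Des, in each list the called genes of lowest adjusted p (at most 4) and the 3 genes closest to each family member that passed. Lists are described by counts and medians. Alternatives were a replicate block, sample weights, a single prior variance, no limit or one of log2(50), quantile normalization or median centring, 2 covariates (the mean of 4 Y-linked transcripts, or the endothelial mean), each mouse left out in turn and a threshold of 0.01.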

Additional observations from a re-analysis of the deposited data

Results flagged for a closer look

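Among 30 groups of 5 mice (each genotype for the 10 genes, Des, the endothelial mean and the 3 balances), 6 had a mouse whose gap to the nearest of the others was large for the range of its group, where chance gives about 1.5, or 1 in 20. Wild-type mouse 3 had 11.69 for Vegfa, where the rest of its group had 12.80 to 13.21, a Vegfa minus Vegfb balance of -0.60, compared with 1.00 to 1.62, and 17.74 for Des, compared with 16.10 to 16.55. Knock-out mouse 3 had 4.41 for Vegfc, compared with 4.99 to 5.17 in the other knock-out mice. Knock-out mouse 1 had a Vegfa minus Vegfb balance of 1.97, compared with 1.18 to 1.38, and an Nrp1 minus Nrp2 balance of 0.81, compared with 0.26 to 0.41. The cause was not tested.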

How the results depend on the processing

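Flt1 passed as lower in 19 of 20 alternatives. With the endothelial marker mean as a covariate its log2 difference was -0.28 (adjusted p = 0.801 from limma). The marker mean does not overlap between the genotypes, and 199 genes of the table (1.39%) and 2 list genes passed with it. It left none (0) of the VEGF family past the threshold and turned the differences of Nrp1 (0.08), Kdr (0.20), Flt4 (0.14), Vegfc (0.48) and Vegfd (-0.12). Instead of 2 genes of the family, 1 passed with no expression limit, with a replicate block, with the Y-linked covariate and at an adjusted p under 0.01, where 994 genes of the table and 22 list genes passed, and 4 passed with sample weights, where 4220 genes of the table and 72 list genes did. The main numbers were 1956 and 42. When 1 mouse was left out, between 1 and 3 genes of the family, 1400 and 2496 of the table and 31 and 47 of the lists passed. Nrp1 had an adjusted p of 0.0655 with no limit, 0.0599 with the replicate block and 0.051 with the Y-linked covariate. Over all alternatives the adjusted p of Nrp1 ranged from 0.00399 to 0.989 and that of Flt4 from 0.0257 to 0.989. Median centring and quantile normalization left Nrp1 and Flt1 past the threshold and added Flt4. Median centring changed the split of all called genes from 1100 higher and 856 lower to 942 and 979.

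Vegfa was -0.01 after median centring, -0.24 with the Y-linked covariate and -0.31 with sample weights, and between -0.22 and 0.16 with mice left out. Vegfc was 0.07 with sample weights and between -0.11 and 0.08 with mice left out. Relative to the endothelial mean, the number that passed was 2 with every mouse left out, 6 with sample weights (Flt1 and Nrp1 as lower, Vegfc, Vegfd, Pgf and Nrp2 as higher) and 0 at an adjusted p under 0.01. On that scale sample weights gave Flt1 -0.30, Nrp1 -0.38, Vegfa -0.08, Vegfb 0.08 and Kdr -0.22, the Y-linked covariate gave Vegfb 0.10, and mice left out gave Vegfb -0.14 to 0.09 and Pgf -0.07 to 0.20. The balance Nrp1 minus Nrp2 stayed between -0.91 and -0.57 (adjusted p 0.0476 to 0.143, exact permutation tests). The sources used here do not say whether the mouse numbers pair the mice. Deviations of same-numbered mice correlated between -0.219 and 0.0673, and no mouse was closest to its own number. Such correlations cannot exclude a pairing. With the replicate block, which ended the call of Nrp1, 1579 genes of the table passed. The cause of these changes was not tested. Depth is unknown, so the counting error of Vegfc and Pgf, the lowest of the family by rlog value, cannot be stated.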

Other observations

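Muscle fiber genes changed beside the vascular ones. At an adjusted p under 0.05, 7.7% of all tested genes were higher and 5.99% lower. Without desmin, 3 of 9 slow fiber genes rose and 1 fell at this threshold, and the list had a median log2 difference of 0.28. Of the 9, 7 had a higher and 2 a lower mean, and the slow myosin gene Myh7 (-0.05), named here after its value was seen, did not pass. Slow troponin T (Tnnt1, 1.70), cardiac calsequestrin (Casq2, 1.01) and slow troponin I (Tnni1, 0.91) were higher, and the ventricular myosin light chain gene Myl3 was lower (-1.0). Of 10 fast fiber genes none was higher and 3 were lower, with a median of -0.44, namely Mybpc2 (-1.05), Actn3 (-0.97) and Myh4 (-0.71). A higher mean was found for 1 of the 10, Myh1 (0.58, adjusted p = 0.132 from limma), named here after its value was seen. Without wild-type mouse 3, 1 gene of this list passed as higher and 3 as lower. The calls of Actn3 (2 mice) and Myh4 (8 mice) were lost when such a mouse was left out, with adjusted p up to 0.0556 and 0.105 (limma).

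Among other cells, fibroblast markers had 4 of 10 genes higher and 1 lower, with a median of 0.28. When single mice were left out, 2 to 4 were higher, and without wild-type mouse 3 there were 3, with a median of 0.15. Lum (0.99), Col1a2 (0.64) and Col1a1 (0.50, adjusted p up to 0.116 with mice left out) were higher and Ly6a (-0.40), which endothelial cells of muscle also express, was lower. Of 5 erythroid genes 2 were lower, Alas2 (-1.0) and Hbb-bs (-0.74), with a median of -0.74, and Hbb-bs shares reads with the near-identical Hbb-bt. The call of Hbb-bs was lost when any of 3 mice was left out (adjusted p up to 0.0658, limma). None of the 11 macrophage, 6 adipocyte, 6 Schwann cell and 4 Y-linked genes passed, with medians of 0.08, -0.07, 0.08 and 0.31. Without wild-type mouse 3 these medians were -0.03, 0.07, 0.08 and 0.15, that of the erythroid genes was -0.50, that of the fast fiber genes -0.30 and that of the slow fiber genes 0.37.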
